A study of Mus musculus with 4 samples.

Results

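The CpGs described here are those at which nearly every read of 1 whole-genome library of wild-type E14 cells was converted and which a second such library also listed. They were chosen from measured values: a level of 90% or more in the first library, and a plus-strand listing at the same base in the second. This rule gave 1576 CpGs of the 331875 that the first library listed, all by their plus-strand cytosine. The first library alone had 6927 at that level. E14 is a mouse embryonic stem cell line. Methylation-assisted bisulfite sequencing (MAB-Seq) was applied to its DNA. Wild-type cells gave 2 whole-genome libraries. Reduced-representation libraries of MspI-cut DNA numbered 2, with 1 library for a control shRNA and 1 for an shRNA directed at Tdg. Whether the wild-type libraries stem from separate cultures is not stated, and the cell type cannot be checked with expression markers in these DNA data. Levels chose the CpGs, so the levels themselves are given as a description.

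In mammals, TET enzymes oxidise 5-methylcytosine to 5-hydroxymethylcytosine and then to 5-formylcytosine (5fC) and 5-carboxylcytosine (5caC). TDG, a DNA glycosylase, removes 5fC and 5caC, and base excision repair restores cytosine. In MAB-Seq the CpG methyltransferase M.SssI first methylates the unmodified CpG cytosines, so that after bisulfite treatment 5fC, 5caC and CpG cytosines missed by the enzyme read as thymine. The level is the percentage of reads with thymine, corrected by the authors for a background. Each strand of a CpG is read separately. A reference CpG that is TpG or CpA in the DNA of the cells also reads as thymine, on both strands, because M.SssI does not act outside CpG. E14 cells come from a mouse strain other than that of the reference genome. No list of strain variants was used here, and the part of such variants, of oxidised bases, of escape from the enzyme or of read placement in these levels was not tested.

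The bases around the cytosine were deposited for the first library. They show which sequences the near fully converted CpGs lie in, written 5′ to 3′ on the plus strand with the CpG in capitals. The 5 contexts with the most members were:
TG-flanked with T after: tgCGt
CG-flanked with C after: cgCGc
TG-flanked with C after: tgCGc
CG-flanked with T after: cgCGt
GA-flanked with G after: gaCGg

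The first 4 of these are the contexts in which CG and TG steps alternate (T or C, then G, then the CpG, then T or C). Together they held 580 of the 1576 CpGs, or 36.8% (exact 95% binomial interval 34.4% to 39.2%). Over all 20901 CpGs found in both whole-genome libraries the share was 20.1%, and over the 19325 of them with a level below 90% it was 18.8% (18.2% to 19.3%). It was higher still, at 55.0% (52.8% to 57.1%), over the 2148 CpGs with a level of 50% to below 90%. A large share of alternating contexts was therefore not particular to near full conversion. All intervals cover counting error alone and treat CpGs as independent, which neighbours on the same reads are not. No test between sets of CpGs was made, because CpGs of 1 library are not replicates.

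The context tgCGt alone had 315 near fully converted CpGs, 19.99% of them (18.04% to 22.05%), against 8.68% (8.28% to 9.08%) of the CpGs below 90%. There were 106 in cgCGc, 103 in tgCGc, 56 in cgCGt and 42 in gaCGg. By comparison caCGc, the context found in a CA repeat interrupted by CG, which is what a TG repeat looks like from its other strand, had 18, or 1.14% (0.678% to 1.799%), and made up 1.34% (1.18% to 1.51%) of the CpGs below 90%. T stood 2 bases before the cytosine in 38.8% (36.4% to 41.2%) of near fully converted CpGs and in 24.4% (23.8% to 25.1%) of those below 90%. G stood directly before the cytosine in 54.3% and 41.0%. C stood there in 13.6% (11.9% to 15.4%) and 23.6% (23.0% to 24.2%). The MspI site CCGG, with the cytosine as its second base, held 71 CpGs, 4.51% (3.53% to 5.65%), against 8.18% (7.79% to 8.57%) below 90%.

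As a share of the CpGs of a context found in both libraries, the near fully converted CpGs were most frequent in 5 contexts, 3 of which do not alternate CG and TG:
TA-flanked with T after: taCGt
TG-flanked with T after: tgCGt
CG-flanked with A after: cgCGa
TG-flanked with C after: tgCGc
TA-flanked with C after: taCGc

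In taCGt, 36 of 219 such CpGs were near fully converted, or 16.4% (11.8% to 22.0%). The shares were 15.8% (14.2% to 17.5%) for tgCGt, 15.6% (8.32% to 25.6%) for cgCGa, 14.1% (11.7% to 16.9%) for tgCGc and 12.6% (6.70% to 21.0%) for taCGc. These 5 intervals overlap, so their order is not resolved. The share over all contexts was 7.54%, the background of the rule itself. By comparison, ggCGg had 39 of 1026, or 3.801% (2.72% to 5.16%).

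Most of these CpGs were at the top of the scale. Of the 1576, 1114 or 70.7% (68.4% to 72.9%) were at exactly 100% after background correction. The remaining 462 had a median of 95.5% (quartiles 92.5% and 98.0%). No gap separated them from lower levels: 41 CpGs had a level of 90% to below 91% and 46 a level of 89% to below 90%. The values next to the limit were 90% inside, with 5 CpGs, and 89.9% outside, with 6. A corrected level of 90% is an uncorrected level of 90.3%, since a background of 3.0% had been taken off.

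CpGs at 100% and those from 90% to below 100% differed in their surroundings. Alternating contexts made up 28.4% (25.7% to 31.1%) of the former and 57.1% (52.5% to 61.7%) of the latter, a value close to that of CpGs from 50% to below 90%. No other listed CpG lay within 1 kb of 34.1% (31.3% to 37.0%) of the former and 13.0% (10.1% to 16.4%) of the latter. The X chromosome held 3 CpGs at 100%, or 0.269% (0.0556% to 0.785%), and 13 from 90% to below 100%, or 2.81% (1.51% to 4.76%). It held 1.44% (1.28% to 1.62%) of the CpGs below 90% and 3.96% (3.17% to 4.87%) of those from 50% to below 90%, so the share just below 100% overlapped that of the set next below.

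The second library gave a p-value per cytosine and no level. At 1400 of the 1576 CpGs, 88.8% (87.2% to 90.3%), the deposited p-value was 0, against 18.3% of all CpGs found in both libraries and 56.1% (54.0% to 58.2%) of those from 50% to below 90%. The p-values follow upper binomial tails with a background of 3.8%, and one that is rounded to 0 in the usual double precision needs at least 12 converted reads. How many unconverted reads went with them cannot be read from a value of 0. By level in the first library, the share with a p-value of 0 was 18.75% (15.7% to 22.1%) at 0, 2.92% (2.45% to 3.46%) above 0 to below 10% and 2.74% (2.38% to 3.15%) at 10% to below 20%. From there it was 16.3% at 20% to below 50%, 46.9% at 50% to below 70%, 63.0% at 70% to below 80%, 76.0% at 80% to below 90%, 85.1% at 90% to below 100% and 90.4% (88.5% to 92.1%) at 100%. The share therefore did not climb steadily with level: CpGs at 0 stood above those up to 20%.

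**Figure D1:**
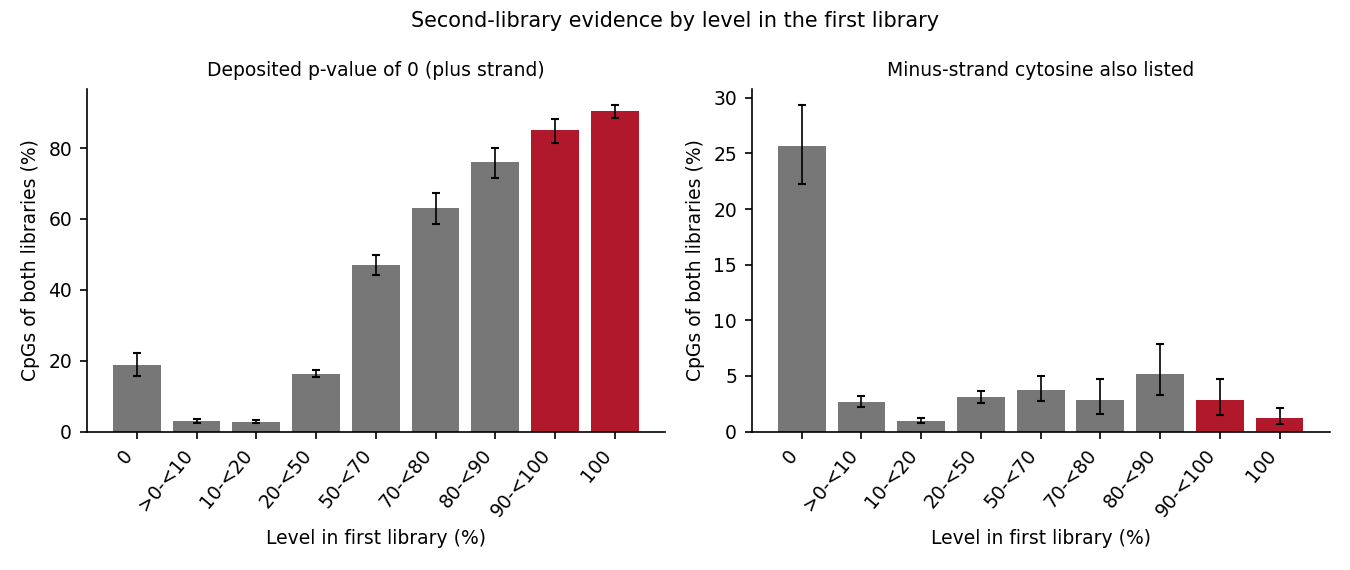
Shares of the CpGs found in both whole-genome libraries (y axis, %) by their level in the first library (x axis, %): left, with a p-value of 0 on the plus strand of the second library; right, with the minus-strand cytosine listed there too. Bars are shares, whiskers exact 95% binomial intervals, and the red bars are the near fully converted CpGs; the left share reached 90.4% at 100% and was 18.75% at 0, while the right share was 1.26% at 100% and 25.7% at 0.

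At 176 of the 1576 CpGs the p-value was above 0, and at 131 of these a single pair of total and converted reads gave the deposited value. They had a median of 15 reads (range 10 to 218) and a median of 36.4% converted (quartiles 27.3% and 55.1%). Recovered in the same way, CpGs from 50% to below 90% had a median of 40.0% converted and all CpGs below 90% had 27.3%. At 113 of the 131 the exact interval of the converted share ended below 90%. These 113 are 7.17% of the 1576, a lower bound, because the converted share is unknown where no reads were recovered. Of these 113, 76 were at 100% in the first library. The commonest pair, found at 6 CpGs, was 3 converted of 10 reads, with an interval of 6.67% to 65.2%. These 131 CpGs leave out by construction the strongest sites, whose p-values are too small to be matched, and none of the 131 was above 90% converted. They show that a level of 90% or more in 1 library was not always met in the other.

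The minus-strand cytosine was listed in the second library at 27 of 1576 CpGs, 1.71% (1.13% to 2.48%), against 2.89% of all CpGs found in both libraries. Without CpGs at 0 in the first library the latter share was 448 of 20293, or 2.21% (2.01% to 2.42%), a value within the interval of the near fully converted CpGs. The gap to 2.89% thus depends on the CpGs at 0, and a low minus-strand share is not read as a result about the 1576 as a whole. At 100% the minus-strand cytosine was listed at 14 of 1114, or 1.26% (0.689% to 2.10%), an interval that ends just below 2.21%. From 90% to below 100% it was listed at 13 of 462, or 2.81% (1.51% to 4.76%). CpGs from 50% to below 90% had 3.82% (3.05% to 4.72%), and those from 10% to below 20% had the lowest share of the level classes, 0.942% (0.732% to 1.19%). The CpGs at 0 in the first library had the highest share, 25.7% (22.2% to 29.3%). A minus-strand cytosine is missing from the list where it had too few reads as well as where it was not converted. The minus-strand coverage at these CpGs is unknown.

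Before the second library was used to choose CpGs, 6927 CpGs were at 90% or more in the first. The second listed 1576 or 22.8% (21.8% to 23.8%) of them on the plus strand and 170 or 2.45% (2.10% to 2.85%) on the minus strand, 143 of them on the minus strand alone. Of the 324948 CpGs below 90% in the first library, it listed 5.95% (5.87% to 6.03%) on the plus strand and 2.22% (2.17% to 2.27%) on the minus strand. The minus-strand share at 90% or more was thus near the background, and the plus-strand share was above it. Seen from the second library, 5433 plus-strand and 5535 minus-strand cytosines had a p-value of 0. The first library listed 3834 of the former, of which 36.5% were at 90% or more and 2.97% at 0. It listed the CpG of 1447 of the latter, of which 9.12% were at 90% or more and 59.9% at 0. Where the first library listed the CpG, a minus-strand cytosine with a p-value of 0 thus mostly sat opposite a plus-strand cytosine at 0. For comparison, of all 331875 CpGs of the first library 66550 were at 0 and 6927 at 90% or more.

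The 27 CpGs with both strands listed were nearly all strong on both. The minus-strand p-value was 0 at 24 of them and the p-value was 0 on both strands at 22. On unplaced contigs lay 4 of the 27, and 4 were in alternating contexts. Others lay at low coordinates of placed chromosomes: chromosome 11 at 3024141, 3053251 and 3068772, chromosome 17 at 3012458 and chromosome 4 at 3018117. The same holds for chromosome 16 at 3239818 and chromosome 8 at 3754459. The share of all CpGs found at such coordinates is not given here. With no other listed CpG within 1 kb there were 3, on chromosome 1 at 91016686 (context taCGc), chromosome 14 at 100638246 (agCGc) and chromosome 8 at 91512633 (gaCGa). Each was at 100% in the first library with a p-value of 0 on both strands. Among the 440 near fully converted CpGs with no listed neighbour within 1 kb, these 3 are 0.682% (0.141% to 1.98%). Outside alternating contexts 23 of 996 had the minus strand listed, or 2.31% (1.47% to 3.44%), against 3.54% (3.26% to 3.84%) of the CpGs below 90% outside these contexts. Within alternating contexts it was 4 of 580, 0.690% (0.188% to 1.76%), against 0.579% (0.359% to 0.883%). Both shares below 90% include the CpGs at 0 in the first library.

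Near fully converted CpGs were found both in tight runs and far from any other listed CpG. The median distance to the nearest listed CpG of the first library was 49 bp, with quartiles of 5 and 1501 bp, and in the CpGs below 90% it was 68 bp, with quartiles of 14 and 1021 bp. Another listed CpG lay within 5 bp of 395 CpGs, 25.1% (22.9% to 27.3%), against 16.0% of all CpGs found in both libraries and 15.2% (14.7% to 15.7%) of those below 90%. In the CpGs from 50% to below 90% it was 48.0% (45.9% to 50.2%), so that tight neighbours were not particular to near full conversion. At the other extreme, 440 CpGs or 27.9% (25.7% to 30.2%) had none within 1 kb, against 25.4% of all CpGs found in both libraries. This share was near that of CpGs below 90%, 25.2% (24.6% to 25.8%), and far above that of CpGs from 50% to below 90%, 8.57% (7.42% to 9.83%). Within 10 kb no other CpG was listed for 118, or 7.49% (6.24% to 8.90%), against 5.67% (5.34% to 6.002%) of the CpGs below 90%. A CpG without a listed neighbour may have had neighbours that were unconverted or uncovered.

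Close neighbours lay mostly at even distances. The nearest listed CpG was exactly 2 bp away at 228 CpGs, 14.5% (12.8% to 16.3%), and exactly 4 bp away at 129, 8.19% (6.88% to 9.65%). A distance of 2 bp was found at 8.04% (7.66% to 8.43%) of the CpGs below 90% and at 32.2% (30.2% to 34.2%) of those from 50% to below 90%. Of the 655 CpGs with a neighbour within 20 bp, 565 or 86.3% (83.4% to 88.8%) had it at an even distance. The share was 74.5% (73.4% to 75.6%) for CpGs below 90% and 90.1% (88.5% to 91.6%) for those from 50% to below 90%. Alternating contexts accounted for 398 of these 565. Among the 580 CpGs in alternating contexts, 52.6% (48.4% to 56.7%) had a listed CpG within 5 bp and 13.97% (11.2% to 17.1%) none within 1 kb. Among the 996 others the shares were 9.04% (7.33% to 10.99%) and 36.0% (33.1% to 39.1%), and 80.1% of these 996 were at 100%. The CpGs below 90% split the same way by context. In alternating contexts 58.5% (56.8% to 60.1%) of them had a listed CpG within 5 bp and 9.62% (8.68% to 10.6%) none within 1 kb, and outside these contexts the shares were 5.24% (4.89% to 5.60%) and 28.8% (28.1% to 29.5%).

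**Figure D2:**
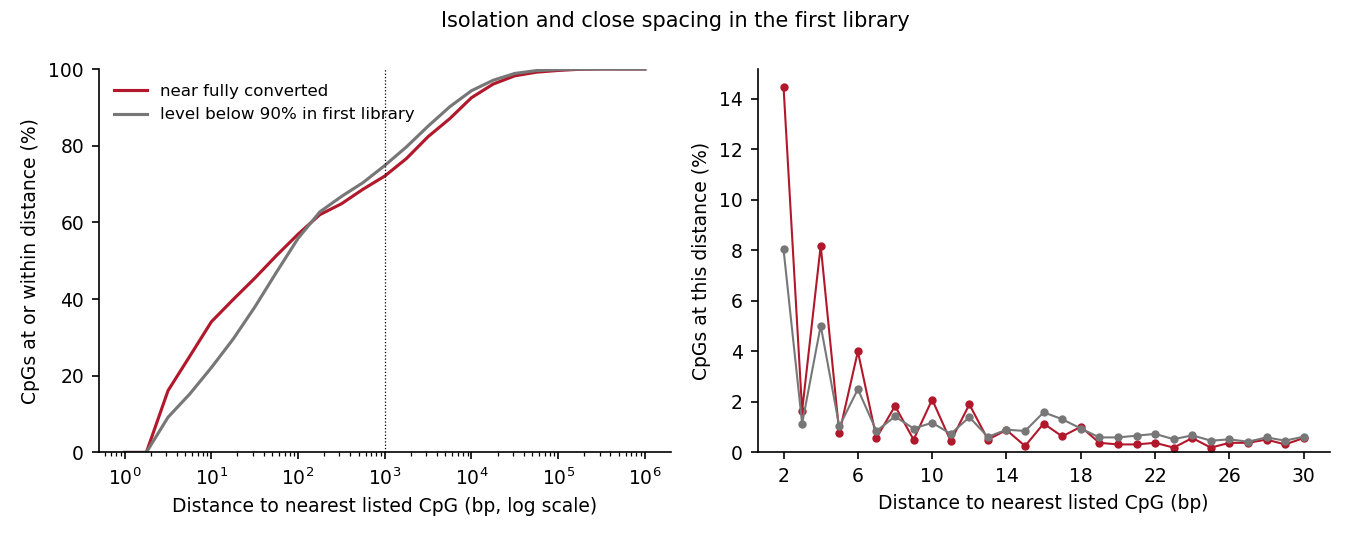
Distance from a CpG to the nearest other CpG listed in the first library. Left, cumulative share (y axis, %) against distance (x axis, bp, log scale, dotted line at 1 kb); right, share at each distance from 2 to 30 bp. Red is near fully converted, grey is found in both libraries with a level below 90% in the first; the red line peaks at 2 bp with 14.5% and at 4 bp with 8.19%, and both lines are higher at short even distances.

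Where the nearest listed CpG lay within 10 bp (537 CpGs), its median level was 93.5% (quartiles 52.4% and 100%). From 11 to 100 bp (360 CpGs) the median was 18.2% and beyond 100 and up to 1000 bp (239 CpGs) 12.4%, with an upper quartile of 43.9%. For CpGs below 90% the medians were 26.8%, 11.6% and 10.8%. For those from 50% to below 90% they were 62.8%, 30.5% and 18.2%, lower than those of the near fully converted CpGs within 10 bp and higher at both longer distances. The upper quartile at 11 to 100 bp went the other way, at 86.1% for the near fully converted CpGs and 59.5% for those from 50% to below 90%. Neighbours within 10 bp usually share reads, so these levels are not separate measurements.

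The overlapping 5-base contexts of listed CpGs at most 5 bp apart give the reference sequence of a run. There were 225 runs of at least 2 listed CpGs that held a near fully converted CpG. Of these, 139 or 61.8% consisted of CG and TG steps alone. The share was 18.5% over all 10626 runs of at least 2 listed CpGs in the first library. Those runs did not have to hold a CpG of both libraries, so the sets are not alike. Alternating contexts made up 8.90% of all first-library CpGs below 90% and 18.8% of those found in both libraries. From 50% to below 90% in both libraries they made up 55.0%. The 6 runs with 5 or more near fully converted CpGs and the 2 further runs with at least 9 listed CpGs of which 4 were near fully converted were singled out after their values had been seen. They show the repeat structure directly, with listed CpGs in capitals, on the plus strand of mm9:
chr3:87889504-87889526: tgCGtgCGtgCGtgCGCGCGCGg
chr4:148954873-148954897: caCGtgCGCGcgCGCGCGCGCGCGt
chr12:54245940-54245956: tgCGCGCGCGCGCGCGt
chr14:76927406-76927418: tgCGCGCGCGCGc
chr15:34275753-34275765: tgCGCGCGCGCGt
chr9:96318707-96318719: cgCGCGCGCGCGt
chr2:174653859-174653889: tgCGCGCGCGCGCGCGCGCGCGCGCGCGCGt
chr8:88967436-88967460: tgCGCGtgCGCGCGCGCGCGtgCGt

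After bisulfite treatment an unprotected plus-strand CG step reads as TG, so a fully converted read of 6 of these runs is a TG repeat throughout. The exceptions are the chromosome 4 run, which starts with a CA step, and the chromosome 3 run, which ends in G. How uniquely such reads can be placed in the genome was not tested. In the run on chromosome 3, all 7 CpGs were near fully converted, between 96.5% and 100%, and all had a p-value of 0 in the second library. On chromosome 9, all 5 listed CpGs were between 95.4% and 97.7%, and on chromosome 15 between 95.7% and 100%, again with a p-value of 0 throughout. On chromosome 14 the levels were 98.1%, 100%, 92.5%, 92.5% and 91.8% from the 5′ end. In the second library the first of these CpGs had only 8 converted of 29 reads, and the other 4 had a p-value of 0. Every listed CpG of these 4 runs was above 90% in the first library. The CpG at the 5′ end of the chromosome 9 run, in lower case, was not listed, and its level is unknown.

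The other 4 runs held CpGs of lower level or were listed only in part by the second library. On chromosome 12 the first 6 CpGs were between 99.0% and 100% and the last was at 30.0%. On chromosome 4, all 9 listed CpGs were at 96.0% or more, 1 CpG inside the run, in lower case, was not listed by the first library, and the last 3, each at 100%, were not listed by the second library. The run of 14 CpGs on chromosome 2 went from 91.5% at its 5′ end to 24.4% at its 3′ end, with 91.4% at the CpG 12 bp from the first and 20.1% at the one 16 bp from it. On chromosome 8, CpGs 8, 10 and 14 bp from the first were at 6.49%, 8.76% and 26.9%, while the other 6 were between 93.1% and 100%. The CpGs 6 and 8 bp from the first, side by side in the repeat, were at 95.4% and 6.49%. No minus-strand cytosine was listed in any of the 8 runs, and over all 225 runs it was listed at 4 of 851 CpGs. The background was low as well. Among CpGs of both libraries in alternating contexts that were not near fully converted, it was listed at 21 of 3628, or 0.579% (0.359% to 0.883%). Its absence therefore does not set the 8 runs apart. The runs also hold CpGs of the first library alone, so the sets are not alike.

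**Figure D3:**
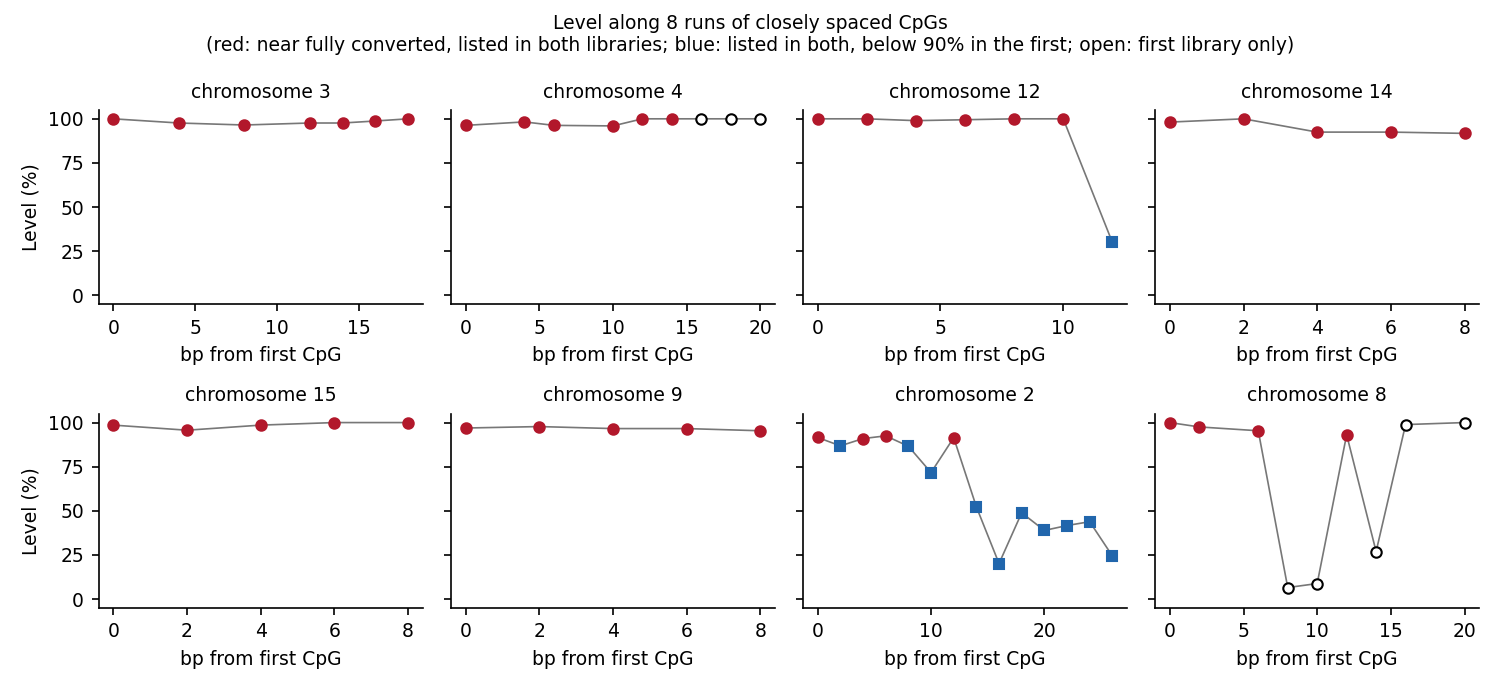
Level in the first library (y axis, %) along the 8 printed runs (x axis, bp from the first listed CpG). Red circles are near fully converted CpGs of both libraries, blue squares CpGs of both libraries below 90%, open circles CpGs of the first library alone; in 5 of the 8 runs every CpG listed by the first library lies above 90%, and those on chromosomes 12, 2 and 8 hold CpGs at 30.0% or lower.

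In the 225 runs, the 456 listed CpGs that were not themselves near fully converted in both libraries had a median level of 54.9%. At 50% or more were 249 of them, or 54.6%, and 92 were below 20%. Of all CpGs of the first library 5.88% were at 50% or more, but most of these lie in no run, so the sets are not alike. The nearest listed CpG within 10 bp had a median level of 26.8% for CpGs below 90%. For those from 50% to below 90% it was 62.8%. Of the 56 runs with at least 5 listed CpGs, the first CpG was higher than the last in 29, lower in 24 and equal in 3, so no direction was shared.

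Along the genome the near fully converted CpGs were counted in blocks of 1 Mb. Whether they cluster more or less than other CpGs was not tested. They occupied 793 of the 2294 blocks of 1 Mb that held any CpG of both libraries, and 439 of the 793 blocks held 1. The median distance from one to the nearest other, on either side, was 105078 bp (1574 with another on the same chromosome), and 268 had no other within 1 Mb. Counting CpGs within 100 bp of each other as 1 group, there were 1316 groups, and 1144 CpGs, 72.6%, were alone in theirs. The 10 fullest blocks held 115 CpGs, 7.30% (6.06% to 8.69%), and without unplaced contigs the share was 6.09%. The 10 fullest blocks of CpGs below 90% held 6.97% of those, and their share without unplaced contigs is not given here. The sets differ in size (1576 and 19325 CpGs), so these shares do not compare how concentrated they are.

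**Figure D4:**
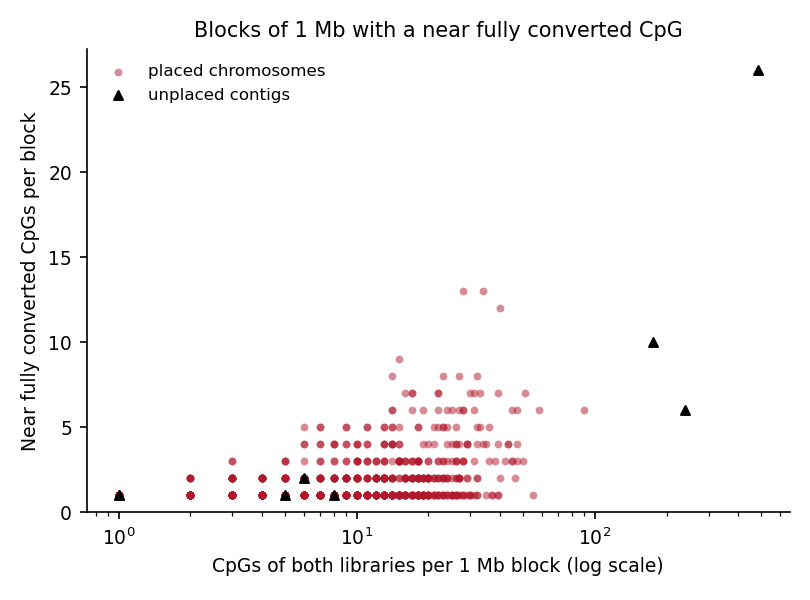
Each point is a block of 1 Mb with at least 1 near fully converted CpG: CpGs found in both whole-genome libraries (x axis, log scale) against near fully converted CpGs (y axis). Red circles are placed chromosomes and black triangles unplaced contigs; most blocks hold 1, the fullest placed blocks hold 13, and the unplaced block with 26 has 483 CpGs of both libraries.

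The fullest block was on the unplaced contigs (chrUn_random) from 5000001 to 6000000, with 26 near fully converted CpGs (exact Poisson interval 17.0 to 38.1), but it had 483 CpGs of both libraries, so that its share was 5.38% (3.55% to 7.79%). The adjoining block from 4000001 to 5000000 had 10 of 175. Of the 26, 9 were at 100% and none was in an alternating context. On placed chromosomes the fullest blocks were chromosome 1 from 187000001 to 188000000 and chromosome 7 from 53000001 to 54000000, with 13 each (6.92 to 22.2), of 28 and 34 CpGs of both libraries. They were made up differently. On chromosome 1, 11 of the 13 were in alternating contexts and they formed 4 groups, 1 of them with 8 CpGs, with 4 at 100%. On chromosome 7, all 13 were at 100%, 5 were in alternating contexts and they formed 12 groups spread from 53141427 to 53805394.

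The remaining blocks also differed in how they were made up. Chromosome 12 from 54000001 to 55000000 had 8 of 14, all in alternating contexts and 6 of them in the run printed above, and chromosome 4 from 148000001 to 149000000 had 12 of 40, of which 6 lay in 1 run. Chromosome 9 from 115000001 to 116000000 had 9 of 15, a share of 60% (32.3% to 83.7%), in 5 groups, and chromosome 5 from 120000001 to 121000000 had 8 of 23 in 4 groups, all at 100%. By contrast, the 8 CpGs on chromosome 12 from 116000001 to 117000000 and the 8 on chromosome 7 from 71000001 to 72000000 were each alone in their group, and none was in an alternating context. On chromosome 12, 6 of those 8 had no listed CpG within 1 kb, and on chromosome 7, 4. These blocks were picked for their counts, so the shares describe them and test nothing. Genes in them are not named because no annotation of mm9 was used here.

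By chromosome, chromosomes 7, 8 and 4 held the most, with 145, 135 and 131. As a share of the CpGs found in both libraries, chromosome 14 had 10.6% (8.52% to 13.1%) and chromosome 7 10.4% (8.87% to 12.2%), and among autosomes the lowest were chromosomes 10, 2 and 11 with 5.04% (3.72% to 6.64%), 5.10% (4.05% to 6.34%) and 5.31% (4.19% to 6.62%). Chromosome X had 16 of 295, or 5.42% (3.13% to 8.66%), an interval that includes the 7.54% of all.

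The reduced-representation libraries took no part in the choice of these CpGs and give levels at a few of them. Of the 1576, 8 or 0.508% (0.219% to 0.998%) were listed at the same base with control shRNA, against 0.373% of all CpGs found in both whole-genome libraries. With Tdg shRNA 31 were listed, 1.97% (1.34% to 2.78%), against 1.61%. Both backgrounds lay within the intervals, so neither share is a result about these CpGs. Whether a CpG absent from these lists was unconverted or not covered by MspI fragments was not tested. Without unplaced contigs the share with Tdg shRNA was 18 of 1528, or 1.18%. The levels were high. All 8 with control shRNA were between 90.6% and 100% (interval of the share at 90% or more 63.1% to 100%), and 5 were at 100%. With Tdg shRNA 25 of the 31, 80.6% (62.5% to 92.5%), were at 90% or more, 17 of them at 100%, and the median was 100%.

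CpGs below 90% in the first library mostly had low levels in the shRNA libraries, with 11 of 70 at 90% or more with control shRNA, 15.7% (8.11% to 26.4%), and 33 of 306 with Tdg shRNA, 10.8% (7.54% to 14.8%). The CpGs from 50% to below 90% were in between with Tdg shRNA, where 20 of 50 or 40.0% (26.4% to 54.8%) were at 90% or more and the median was 78.6%. With control shRNA, 7 of 9 of them were at 90% or more, an interval of 40.0% to 97.2%. Each shRNA library is the only one of its group, so the spread between cultures is unknown. On unplaced contigs lay 13 of the 31 CpGs with Tdg shRNA and 1 of the 8 with control shRNA. Without unplaced contigs, 15 of 18 with Tdg shRNA and 7 of 7 with control shRNA were at 90% or more.

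**Figure D5:**
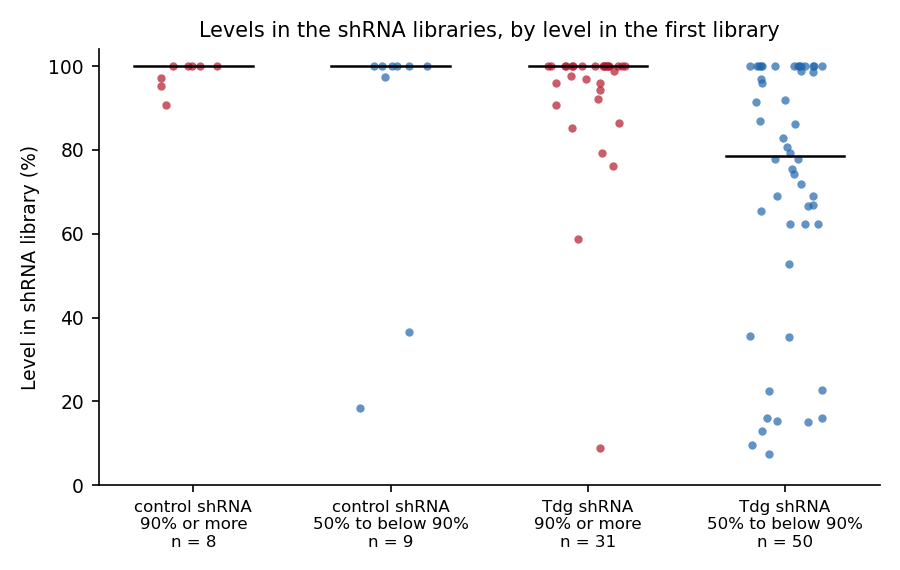
Levels in the shRNA libraries (y axis, %) of CpGs found in both whole-genome libraries, by level in the first of these: red, 90% or more; blue, 50% to below 90%. Points are single CpGs of 1 library, black lines medians; all 8 near fully converted CpGs lie above 90% with control shRNA, and 6 of 31 lie below it with Tdg shRNA.

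The 8 near fully converted CpGs found in both shRNA libraries were at 90% or more in each. Levels of 100% in the first whole-genome, the control shRNA and the Tdg shRNA library were found at chromosome 10 position 93296955 (context gcCGg), chromosome 3 position 114567195 (ccCGg) and chromosome 5 position 138176804 (ccCGa). Chromosome 10 position 122231284 (tgCGg) was at 100%, 100% and 97.7% in that order, and chromosome 4 position 28103996 (agCGt), whose nearest listed CpG was 26456 bp away, at 99.6%, 95.3% and 97.0%. Chromosome 1 position 20422348 (aaCGg) was at 94.1%, 97.3% and 94.2%, but had only 11 converted of 21 reads in the second whole-genome library. For the others of the 8 no reads could be recovered there. Chromosome X position 154061446 (cgCGg) was at 93.9%, 90.6% and 90.6%. The last, on the unplaced contigs at 3557662 (aaCGg), was at 93.8%, 100% and 100%. None of the 8 was in an alternating context and none had its minus strand listed in the second whole-genome library.

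The 6 CpGs below 90% with Tdg shRNA included 3 on unplaced contigs, at 79.3%, 76.1% and 8.997%. The 3 others were at 86.5% on chromosome 2 (98502984), 85.2% on chromosome 17 (3077795) and 58.6% on chromosome 8 (19924991). The value of 8.997% belonged to a CpG at 100% in the first whole-genome library, at 5813651 of the unplaced contigs, with a p-value of 0 in the second. All 6 were absent from the control shRNA list, as were 17 of the 25 at 90% or more with Tdg shRNA, so that absence did not set the 6 apart.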

How the data were processed

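The tools CASAVA 1.8 and Bismark 0.10.1 and the build mm9 are named in the submitters' processing notes. How sites were called is not given in the sources used here. The authors deposited a percent level per cytosine for the first whole-genome library (plus strand, with 5 bases) and both shRNA libraries, and a p-value, at most 0.00997, for the second whole-genome library. Depth is unknown except where reads were recovered.

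The first library's values matched 3-decimal fractions less a background of 3.0% (100% of values above 0). Reads were recovered from p-values above 1e-12 as upper binomial tails with a background of 3.8%, 10 to 400 reads and at least 3 converted (relative tolerance 1e-08 or absolute 4.5e-16, 1 match required). Recovery, distances and run assembly were tested on simulated data. Intervals are exact (Clopper-Pearson, Poisson), at 95%. Python 3.11.15, SciPy 1.17.1 and pandas 2.3.3 were used. Positions are 1-based.

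Members and lists were chosen with earlier results of these data known. Named were the 10 fullest blocks, CpGs at 90% or more in both shRNA libraries, and the 5 contexts with the most members and with the largest share (at least 20 CpGs). The runs replace a rule on closest members that ties left undecided. Alternatives changed the level minimum, contigs, libraries, block size, distance and strand matching.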

Additional observations from a re-analysis of the deposited data

How the results depend on the processing

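Of 38 alternatives, 17 left a share within its interval or a count within 1.5 times and 21 moved it, none with a test. Those that used contexts, counted neighbouring CpGs once or asked for the alternating share were chosen after seeing the data. With a level minimum of 80%, 23.8% of CpGs had none within 1 kb, 40.6% were in alternating contexts and the 10 fullest blocks held 8.79%. With levels of exactly 100%, 34.1% had no neighbour within 1 kb, 28.4% were in alternating contexts, 17.0% in tgCGt and 0.898% in either shRNA list. Without whole-genome wild type replicate 2, the number of CpGs was 6927, 33.5% had no neighbour within 1 kb, 27.3% were in alternating contexts, 15.2% in tgCGt and 4.29% in the 10 fullest blocks. Leaving out replicate 1 gives no level. Outside the 4 alternating contexts, 36.0% had no neighbour within 1 kb, 9.04% were in the 10 fullest blocks and 2.81% were in either shRNA list. That share was 1.18% without unplaced contigs. With neighbours from either whole-genome library 25.5% had none within 1 kb. The share with none was 43.1% for 100 bp and 7.49% for 10 kb. The 10 fullest blocks of 500 kb held 5.96% and those of 5 Mb 12.2%. The minus-strand share stayed between 1.26% and 2.42% in the 4 alternatives tried. No paired analysis was possible because the 2 wild-type libraries form 1 group and the values have no test. Depth limits the second library, where a p-value of 0 gives no level.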

Other observations

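The first library held 5351 further CpGs at 90% or more that the second library did not list on the plus strand. They were at exactly 100% in 70.5% of cases (exact 95% interval 69.2% to 71.7%), against 70.7% (68.4% to 72.9%) of those in both libraries. Alternating contexts made up 24.5% (23.4% to 25.7%) and tgCGt alone 13.7% (12.8% to 14.7%), both below the 36.8% and 19.99% of the CpGs in both libraries. No listed CpG lay within 1 kb of 35.2% (33.9% to 36.5%), against 27.9% (25.7% to 30.2%). Below 90%, alternating contexts made up 8.90% of all first-library CpGs and 18.8% of those in both libraries. For tgCGt the shares were 3.58% and 8.68%, and for no listed CpG within 1 kb 32.5% and 25.2%. These contrasts were therefore not particular to near full conversion. The minus-strand cytosine of the 5351 was listed by the second library at 143, or 2.67% (2.26% to 3.14%), against 2.22% (2.17% to 2.27%) of the first-library CpGs below 90%.

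On unplaced contigs lay 48 of the 1576 CpGs, 3.05% (2.25% to 4.02%), against 4.70% (4.40% to 5.01%) of the CpGs of both libraries below 90%. All 48 had a p-value of 0 in the second library, against 30.6% of the unplaced CpGs of both libraries below 90%. All 48 also had another listed CpG within 1 kb. Only 18 of those 908 unplaced CpGs below 90% had none, so a near neighbour was not particular to the 48. Of them 41.7% (27.6% to 56.8%) were at 100% and 4 had the minus strand listed, 8.33% (2.32% to 19.98%), compared with 1.51% (0.957% to 2.25%) of those on placed chromosomes. The CpGs of both libraries below 90% had 11.9% (9.86% to 14.2%) on unplaced contigs and 2.55% (2.32% to 2.78%) on placed chromosomes, so the contrast was not particular to near full conversion.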
